A study of Mus musculus with 8 samples.

Results

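The genes Osmr, Lifr and Il6st encode the receptor chains through which oncostatin M (OSM) signals, and 6 sites listed for tyrosine-phosphorylated STAT3 lay in mm9 windows around them. Members were all peaks of the 6 deposited lists that overlapped the stretch from 6.7 to 7.25 Mb of chromosome 15, which holds Osmr (about 6.76 to 6.83 Mb) and Lifr (about 7.04 to 7.15 Mb), or the stretch from 113.2 to 113.35 Mb of chromosome 13, which holds Il6st. They were 6 of the 5343 distinct sites with an exact position in the lists. The data came from chromatin immunoprecipitation and sequencing (ChIP-seq) with an antibody to STAT3 phosphorylated on tyrosine 705. The cells were mouse embryonic fibroblasts that lacked endogenous STAT3 (STAT3-/-) and re-expressed from a construct either STAT3α, the full-length form, or STAT3β, the splice form that lacks the C-terminal transactivation domain. The 6 groups were STAT3α cells after 0, 30 and 180 min of OSM and STAT3β cells after 0, 30 and 180 min of OSM, with 1 list each.

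All cells, the 0 min ones included, had received 1 nM 4-hydroxytamoxifen for at least 48 h to switch on the spliceform, grew under puromycin selection and had been without serum for 16 h. The cytokine was human recombinant OSM at 10 ng/mL. There was 1 cell line for each spliceform, and whether a line is a single clone is not stated. Duplicates were prepared, but the reads of a group were merged into 1 list. No value below therefore has a replicate error, and no test between spliceforms or times was possible. The lists held 9, 3725 and 40 peaks for STAT3α and 12, 3891 and 120 peaks for STAT3β at 0, 30 and 180 min. They give no height or read number, so sequencing depth is unknown, and a site that is missing from a list is not shown to be unbound. Spliceform, cell line and depth cannot be told apart. The lists hold no expression values, so neither the fibroblasts nor the spliceforms could be checked by marker genes.

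As background, Il6st encodes gp130, the signal-transducing chain shared by the interleukin-6 cytokine family. OSM binds gp130 and then recruits a partner chain, either the OSM receptor subunit encoded by Osmr or the leukaemia inhibitory factor (LIF) receptor encoded by Lifr. JAK kinases bound to these chains phosphorylate them, STAT3 docks on the phosphorylated tail and is phosphorylated in turn, and STAT3 dimers then enter the nucleus and bind DNA. On mouse cells human OSM is known to act through the complex of Lifr and gp130 rather than through mouse Osmr.

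The sites in the most lists lay in the Osmr interval and the Il6st window. The RefSeq promoters of these genes are shown because they share a run of 9 letters. The sequences are the 250 bases before the start of each gene in build GRCm38.p6, read 5′ to 3′ on the gene's strand. They are from chr15:6874314-6874563 (minus strand) for Osmr and chr13:112463820-112464069 (plus strand) for Il6st. The capitals mark TTACGGGAA, which stands as TTCCCGTAA, its reverse complement, in Osmr.
Osmr: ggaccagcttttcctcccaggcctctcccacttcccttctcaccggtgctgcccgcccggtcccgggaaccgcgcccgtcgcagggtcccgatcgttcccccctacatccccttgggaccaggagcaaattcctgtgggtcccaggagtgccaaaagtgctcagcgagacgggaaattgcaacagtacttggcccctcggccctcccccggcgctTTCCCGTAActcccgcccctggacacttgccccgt
Il6st: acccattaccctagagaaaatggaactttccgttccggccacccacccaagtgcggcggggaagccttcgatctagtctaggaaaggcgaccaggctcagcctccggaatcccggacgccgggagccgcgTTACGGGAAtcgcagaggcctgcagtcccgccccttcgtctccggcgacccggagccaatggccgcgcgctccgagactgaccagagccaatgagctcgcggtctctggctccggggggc
The positions of these promoters belong to GRCm38.p6 and those of the peaks to mm9. They were not converted, so whether a listed peak covers the letters was not tested.

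The letters TTACGGGAA stood at bases -120 to -112 from the start in Il6st and at bases -35 to -27 in Osmr. They occurred, on either strand, in 37 of 32851 RefSeq mouse promoters of 300 bases (0.113%) and in 25 of 17492 protein-coding genes (0.143%). Of those 25 genes, named here after the search, 10 had only a Gm symbol. Besides Osmr and Il6st the others were Fam217b, Gmcl1, L3mbtl1, Lcmt1, Lrrc27, Man1a, Mcl1, Pde6h, Ppp1r3d, Rbm47, Scp2, Sema4c and Trappc2l. The canonical STAT letters TTCNNNGAA were in none of the 4 promoters listed for the 3 genes (1 for Osmr, 1 for Il6st and 2 for Lifr), against 8.3% of all promoters. The form with 1 more spacer base was in none of the 4 either, against 6.95% of all. TTACGGGAA differs from the canonical letters in 1 fixed base. Such letters are common, and 69.2% of all promoters held a run that is 1 base off. The 4 promoters held 4 distinct runs of this kind, 2 in Osmr, 2 in Il6st and 1 in Lifr, counting TTACGGGAA in both genes that hold it. It was the only one in more than 1 of the genes. This search was made after the promoters had been seen, and the letters were picked because Osmr and Il6st share them, so neither the sharing nor the absence from Lifr is a test. The AP-1 letters TGANTCA were in 7.81% of all promoters and, among the 4, in that of Osmr alone, as TGATTCA at bases 4 to 10 after the start. A match does not show that STAT3 binds there, and a missing match is limited to these letters and windows.

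Peak positions below are on mm9 and count from 1. Osmr carried the site with the most listings. This outer Osmr site, at chr15:6824175-6824574, was in 5 of the 6 lists. For STAT3α it was absent at 0 min and present at 30 and 180 min, and for STAT3β it was present at 0, 30 and 180 min. It lay 5.43 kb inside the upper end of the approximate Osmr interval. Osmr is on the minus strand, so its start is at that end. The bound is approximate, so 5.43 kb need not be the distance to the start. Whether the site covers the start or lies inside the gene was not tested. Of all 5343 sites, 5 (0.0936%) were in 5 or more lists, and this was the only one of the 6 receptor gene sites among them. It was also the only one of the 6 in a 0 min list, where 11 of all sites (0.206%) stood. Phosphorylated STAT3 was thus listed at Osmr before cytokine in the STAT3β line and not in the STAT3α line, a difference between 2 lists of 12 and 9 peaks.

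The inner Osmr site, at chr15:6807503-6807902, was in the STAT3α list at 30 min only. It lay 16.7 kb, centre to centre, from the outer site, towards the middle of the approximate gene interval. No STAT3β list held it at any time. Within the Osmr interval the STAT3α lists thus held 0, 2 and 1 sites at 0, 30 and 180 min, and the STAT3β lists 1, 1 and 1.

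In the Lifr interval 2 sites were listed, both for STAT3α only, as were 27.1% of all 5338 sites of the 30 min lists. The first, at chr15:7079354-7079753, and the second, at chr15:7085926-7086325, lay 6.57 kb apart and 39.4 and 45.9 kb inside the lower end of the approximate Lifr interval. That end is approximate and need not mark the start of the gene. In GRCm38.p6 the Osmr promoter stands at chr15:6874314-6874563 and the lower of the 2 Lifr promoters at chr15:7129322-7129571. On mm9 the first Lifr site lay 255 kb from the outer Osmr site. That is about the distance between the Osmr promoter and the lower Lifr promoter in GRCm38.p6. Whether the outer Osmr site and the first Lifr site lie at those promoters was not tested, since positions were not converted. Nor was it tested whether the second Lifr site lies at a promoter. Both Lifr sites were in the STAT3α list at 30 min and in no other list. The STAT3β lists held 0 sites in the Lifr interval at 0, 30 and 180 min. This pair was the closest of the 6 sites. Among the 5338 sites of the 30 min lists, the median distance to the nearest other site was 46.2 kb, and 18% of sites had a neighbour as near as these did.

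One site lay between the genes, at chr15:6961262-6961661, and was listed for STAT3β at 30 min only. It was 137 kb from the outer Osmr site and 118 kb from the first Lifr site, and 78.3 kb below the lower end of the approximate Lifr interval. In the RefSeq gene order no protein-coding gene stands between Osmr and Lifr, and 3 long non-coding RNA genes do. Rictor, which encodes a subunit of the mTORC2 kinase complex, is the protein-coding gene on the other side of Osmr, and Egflam is the one on the other side of Lifr. The order was taken from GRCm38.p6 and gives neighbours only, so the site cannot be assigned to any of them.

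Il6st carried a single site, at chr13:113253967-113254366. It was absent at 0 min and present at 30 and 180 min for STAT3α, and likewise absent at 0 min and present at 30 and 180 min for STAT3β. It was therefore the only one of the 6 sites with the same record in both spliceforms. It lay 54.0 kb from the lower and 95.6 kb from the upper end of its window. The extent of the gene within the window was not at hand in mm9, so whether the site lies in the gene was not tested. Positions of 100 Mb and more were rounded in the 0 min lists, but no rounded peak was on chromosome 13. In the RefSeq order the protein-coding neighbours of Il6st are Il31ra, which encodes the chain that pairs with the product of Osmr in the interleukin-31 receptor, and Ankrd55.

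**Figure D1:**
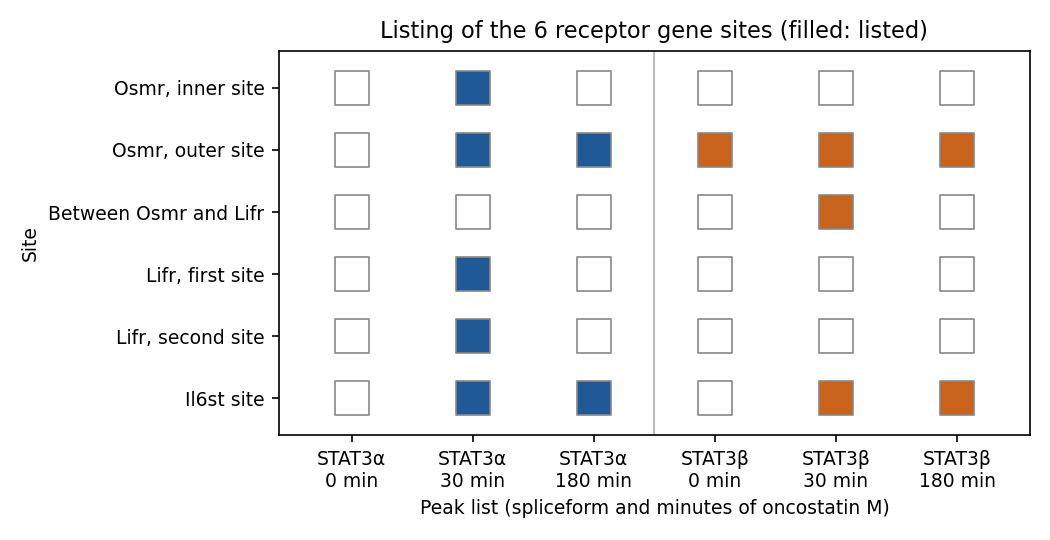
Listing of the 6 sites (rows) in the 6 peak lists (columns, spliceform and minutes of OSM); a filled square is a listed peak, blue for STAT3α and orange for STAT3β, and an open square means not listed. The outer Osmr site fills 5 squares and the Il6st site 4, while each of the other 4 sites fills 1 square, at 30 min.

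**Figure D2:**
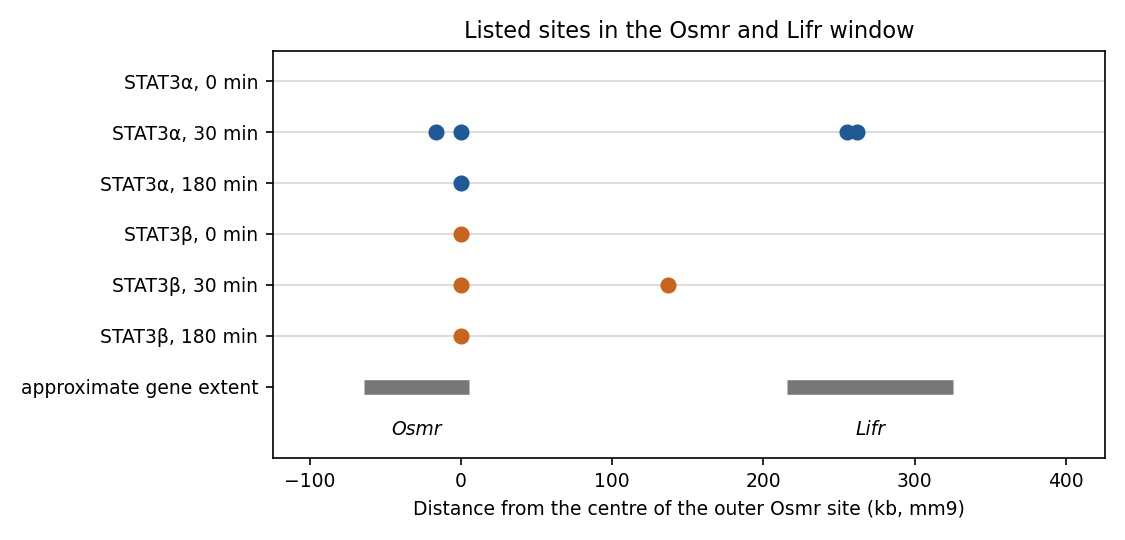
Distance in kb (mm9) of each listed site in the Osmr and Lifr window from the centre of the outer Osmr site, with 1 row per list and grey bars for the approximate gene extents. Both Lifr sites stand in the STAT3α row at 30 min and the site 137 kb from the outer Osmr site in the STAT3β row at 30 min.

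At 30 min the spliceforms had the outer Osmr site and the Il6st site in common. The STAT3α list held 5 of the 6 sites, and the STAT3β list held 3 of the 6. Over all 5338 sites of the 30 min lists, 69.8% were in the STAT3α list, 72.9% in the STAT3β list and 42.7% in both. Of the 6 sites, 2 (33.3%, 95% exact binomial interval 4.33 to 77.7%) were in both lists, an interval that includes the share of all sites. The STAT3α list had 3 of the 6 to itself (the inner Osmr site and both Lifr sites), and the STAT3β list had 1, the site between the genes. Over all 5338 sites, 27.1% were listed at 30 min for STAT3α only and 30.2% for STAT3β only. The 2 common sites were 40.0% of the 5 sites of the STAT3α list and 66.7% of the 3 sites of the STAT3β list, against 61.2% and 58.5% over the whole lists, which both lie inside the exact intervals of 5.27 to 85.3% and 9.43 to 99.2%. The intervals cover counting over sites only, and the genes and windows were chosen with earlier results of these data known.

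At 180 min the same 2 sites remained, in both spliceforms. In STAT3α cells 2 of the 5 sites of 30 min were listed at 180 min (40.0%, interval 5.27 to 85.3%), against 0.94% of all STAT3α sites (35 of 3725). In STAT3β cells 2 of the 3 sites of 30 min were listed at 180 min (66.7%, interval 9.43 to 99.2%), against 3.03% of all STAT3β sites (118 of 3891). Both sites that were common at 30 min were in both 180 min lists, where 27 of the 2278 common sites of the whole series (1.19%) stood. The outer Osmr and Il6st sites were thus 2 of those 27. They were also 2 of the 30 sites (0.561% of 5343) that appeared in 4 or more lists. The same 2 sites enter all of these shares, and the windows were chosen with earlier results known. The intervals cover counting over sites only, so none of these shares is a test of enrichment. None of the 3 sites listed for STAT3α alone at 30 min was in a 180 min list. Neither was any of the 1447 such sites in all (0.0%, where 3 sites would make 0.207%). The site listed for STAT3β alone was not in a 180 min list either, against 0.496% of such sites (8 of 1613).

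Among the 6 sites, listing at 180 min went with listing in both spliceforms at 30 min, as it did in the whole lists. This concerns the link between time and spliceform, not the share of sites listed at 180 min, which is given above. The 4 sites listed at 30 min and at no other time were each listed for a single spliceform, 3 for STAT3α and 1 for STAT3β, and 58.6% of all 5208 sites with such a record were listed for a single spliceform. The 2 sites listed at 30 and 180 min, the outer Osmr site and the Il6st site, were in both 30 min lists, as were 120 of all 128 sites of a 30 min and a 180 min list (93.8%). The link between time and spliceform is therefore not read as particular to the receptor genes.

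Density around the genes was compared with the rest of the genome as a description. The Osmr and Lifr window of 550 kb held 5 sites of the 30 min lists, which is 9.09 per Mb, against 3.55 per Mb on chromosome 15 and 2.1 per Mb over all chromosomes. When the chromosomes were divided into adjoining windows of the same length, 300 of 4633 (6.48%) held 5 sites or more, the highest number being 18. The Il6st window of 150 kb held 1 site, and 20.1% of 16935 adjoining windows of that length held 1 or more. The Il6st site stood alone, 139 kb from the nearest other 30 min site, and 73.8% of all sites had a nearer or equally near one.

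**Figure D3:**
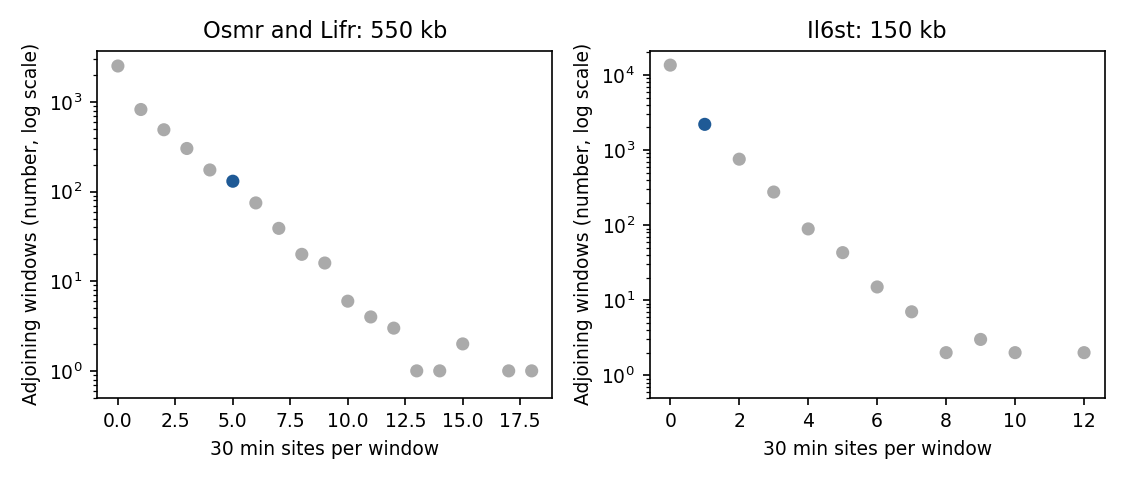
Number of adjoining genome windows (log axis) against the number of 30 min sites per window, for windows of 550 kb (left) and 150 kb (right); blue marks the number found in the Osmr and Lifr window (5) and in the Il6st window (1). Most windows hold 0 sites, and 6.48% of the 550 kb windows hold 5 or more.

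Outside the windows the nearest sites were listed at 30 min only. Below the Osmr and Lifr window the nearest, at chr15:6657711-6658110, was 41.9 kb away and in the STAT3β list alone, and above it the nearest, at chr15:7547425-7547824, was 297 kb away and in both 30 min lists. Below the Il6st window a STAT3β site at chr13:113115264-113115663 lay 84.3 kb away and a STAT3α site at chr13:113108256-113108655 lay 91.3 kb away. Above it the nearest, at chr13:113560880-113561279, lay 211 kb away and was listed for STAT3β alone. These flanking sites enter no count of members.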

How the data were processed

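The submitters' processing notes name HOMER 4.9, MACS2 2.1.1.20160309, bedtools, STAR 2.5.0a and Trim Galore 0.4.2, and build mm9, without the role or threshold of a tool. Per the labels, the authors deposited 1 peak list per ChIP sample, made from merged reads. The values are peak positions in bp, and no other quantity is listed. The 2 input samples were not used. In the 0 min lists 6 positions of 100 Mb or more were rounded, and these were left out. Peaks that shared at least 1 bp were counted as 1 site, and 0 such sites had differing coordinates between lists. The listings of a site may therefore not be independent peak calls. Whether the lists were drawn from a common set of peaks was not tested. Starts were turned to count from 1.

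All sites of both windows are named, whatever their listing. Members, windows and lists were chosen with earlier results of these data known. Shares have 95% exact (Clopper-Pearson) intervals. Promoters (RefSeq, GRCm38.p6, 250 bases before to 50 after the start) were matched by symbol for 3 of 3 genes and searched on both strands. No mm9 genome or protein table was used here. The site functions were tested on simulated data. Python 3.11.15, pandas 2.3.3, scipy 1.17.1 and matplotlib 3.10.9 were used.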

Additional observations from a re-analysis of the deposited data

How the results depend on the processing

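Of 40 alternative values for 18 results, 36 stayed within 1.5 times the reported value, and the 4 others are counts that moved with the extent of a window. With the Il6st window widened by 100 kb on each side it held 3 sites, 2 of them in the STAT3α and 2 in the STAT3β 30 min list, against 1 in all and 1 in each list. With only the approximate gene extents and 20 kb on each side, the STAT3β 30 min list held 1 site near Osmr and Lifr, against 2, since the site between the genes lies outside. Requiring identical positions, requiring whole peaks inside a window, counting peaks within 1 kb as 1 site and using the rounded 0 min positions changed none of the counts they were applied to. These settings could not have changed those counts. No site had differing coordinates between lists, and the closest of the 6 sites lay 6.57 kb apart. Each lay at least 54.0 kb from a window end, and no rounded peak was on chromosome 13 or below 100 Mb. The 36 values include these, so that number is no measure of stability. Searching only the 250 bases before the start, chosen after seeing the data, gave TTACGGGAA in 0.0974% of promoters, against 0.113%. No paired analysis was possible because each spliceform and time has 1 merged list, and for the same reason no replicate could be left out. Depth and peak height are unknown, so strong and weak sites could not be told apart.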
